A study of Mus musculus with 9 samples.

Results

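Cells detect foreign or misplaced nucleic acids with a small set of sensor proteins, and 10 genes of that system were followed here in mouse cardiomyocytes: the RNA helicases Ddx58, Ifih1 and Dhx58, the ubiquitin ligase Trim25, the adaptors Mavs and Tmem173, the RNA-binding sensors Zbp1, Eif2ak2 and Tlr3, and the RNA-editing enzyme Adar. They were chosen by name, and each of the 10 symbols matched a single row among the 55487 genes of the count table. Ddx58 is also written Rigi and encodes RIG-I, and Tmem173 is also written Sting1 and encodes STING. RNA-seq counts were available from 9 libraries of isolated cardiomyocytes, 3 per group. The Firre libraries are labelled as overexpression of the long noncoding RNA Firre from an AAV9 vector, the negative control libraries as AAV9 with the control vector, and the blank control only as a blank. Whether the vectors were given to mice or to cells in culture, and whether the blank control received any virus, is not stated. AAV9 is an adeno-associated virus serotype used to deliver genes to heart muscle. The sources used here do not give mouse strain, age, vector promoter, vector dose or time after delivery. The titles call the replicates biological, but whether they are separate animals or cultures is not stated. The p-values therefore measure the spread between these libraries, which may be technical.

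RIG-I and MDA5, the product of Ifih1, bind double-stranded or 5′-triphosphate RNA in the cytosol and signal through MAVS on the mitochondrial surface to the kinases that switch on interferon genes. LGP2, the product of Dhx58, is a related helicase without the signalling domains, TLR3 binds double-stranded RNA in endosomes, and STING relays the cyclic dinucleotide that the enzyme cGAS makes when it finds DNA in the cytosol. Interferon in turn raises the transcription of most of the RNA sensors, while ADAR edits adenosines in cellular double-stranded RNA and so keeps it from being sensed as foreign.

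Promoter sequence was examined because interferon acts on its target genes through short DNA elements near the start of transcription. RefSeq windows on GRCm38.p6, from 250 bases before to 50 bases after the start, were examined for 7 of the 10 genes. These made 9 windows because Adar has 3 annotated starts. No window of Dhx58, Zbp1 or Tmem173 was examined, so the motif counts do not cover these genes, and Tmem173 is the gene that fell. The interferon-stimulated response element, searched as GAAANNGAAA on both strands, was found in 3 of the 9 windows, those of Ddx58, Ifih1 and Eif2ak2, and in 3.44% of all 32851 windows. The shorter core that interferon regulatory factors recognise, searched as AANNGAAA on both strands, was found in 6 of the 9 windows, those of Ddx58, Ifih1, Eif2ak2, Tlr3 and Trim25 and the downstream of the 3 Adar starts, and in 23.9% of all windows. Each longer element overlaps at least 1 match of that core, and Ddx58 holds a further core match, which begins 59 bases before the start and does not overlap its longer element. The STAT element TTCNNNGAA, searched on both strands, was found in the windows of Eif2ak2 and of the downstream Adar start, and in 8.30% of all windows. The stretches below are read 5′ to 3′ on the strand of the gene, and capitals mark the GAAANNGAAA match, or the AANNGAAA match where the longer element was not found.
Ddx58, chr4:40239804-40239833, minus strand: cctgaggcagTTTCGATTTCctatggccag
Ifih1, chr2:62646206-62646235, minus strand: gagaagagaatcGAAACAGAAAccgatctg
Eif2ak2, chr17:78882535-78882564, minus strand: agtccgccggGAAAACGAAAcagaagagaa
Tlr3, chr8:45410381-45410500, minus strand: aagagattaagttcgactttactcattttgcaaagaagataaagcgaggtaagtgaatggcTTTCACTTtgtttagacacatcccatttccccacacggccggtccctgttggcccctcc
Trim25, chr11:88999388-88999417, plus strand: ctcctgttcagTTTCGATTccttcctcgct
Adar, chr3:89730736-89730765, plus strand: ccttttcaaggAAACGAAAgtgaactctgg
With the first transcribed base as position 1, the marked bases lay at positions 3 to 12 in Ddx58, 33 to 42 in Ifih1, 19 to 28 in Eif2ak2 and 30 to 37 at the downstream Adar start. In Tlr3 they began 59 bases before the RefSeq start, and in Trim25 they ran across it, from 4 bases before the start to position 4. The GENCODE positions given below place the beginning of these genes farther upstream. For Tlr3 it is 45411080 against the RefSeq start at 45410380, and for Trim25 88999376 against 88999403. By those positions the marked bases of Tlr3 and Trim25 lie inside the gene. The matches in Ddx58, Tlr3 and Trim25 read the element on the opposite strand. A match describes letters in the window and is not evidence that a factor binds there.

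The libraries held 15591542 to 22697016 counts assigned to genes, and the 10 genes had between 44 counts (Zbp1) and 4548 counts (Ddx58) in a library. Levels are given as CPM, which scales each count to the size of its library after TMM normalisation. Firre itself had 62.9, 69.7 and 62.6 CPM in the 3 Firre libraries. The negative control had 32.5, 34.4 and 32.7 CPM and the blank control 34.0, 37.2 and 30.2 CPM. Cardiomyocyte markers were abundant in all 9 libraries, with 14 genes summing to 61880 to 64750 CPM in the Firre libraries, 39420 to 42500 CPM in the negative control and 40490 to 42480 CPM in the blank control.

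With Firre overexpression 9 of the 10 sensor and adaptor genes rose and Tmem173 fell, against the negative control and against the blank control alike. All 10 passed the low-count filter, and each passed edgeR's quasi-likelihood test at a Benjamini-Hochberg adjusted p below the threshold of 0.05. The background was high: of the 15633 genes tested, 56.0% passed against the negative control and 56.3% against the blank control. Those that passed as higher made up 27.5% and 27.3% of the genes tested, and those that passed as lower 28.4% and 28.9%. In all 10 genes the 3 Firre libraries did not overlap the 3 negative control or the 3 blank control libraries, which held for 62.4% and 60.5% of the genes tested. The median log2 fold change of the 10 genes was 1.23 against the negative control, beside 0.00 over all genes tested. The 2 comparisons share the Firre libraries and are not independent.

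**Figure D1:**
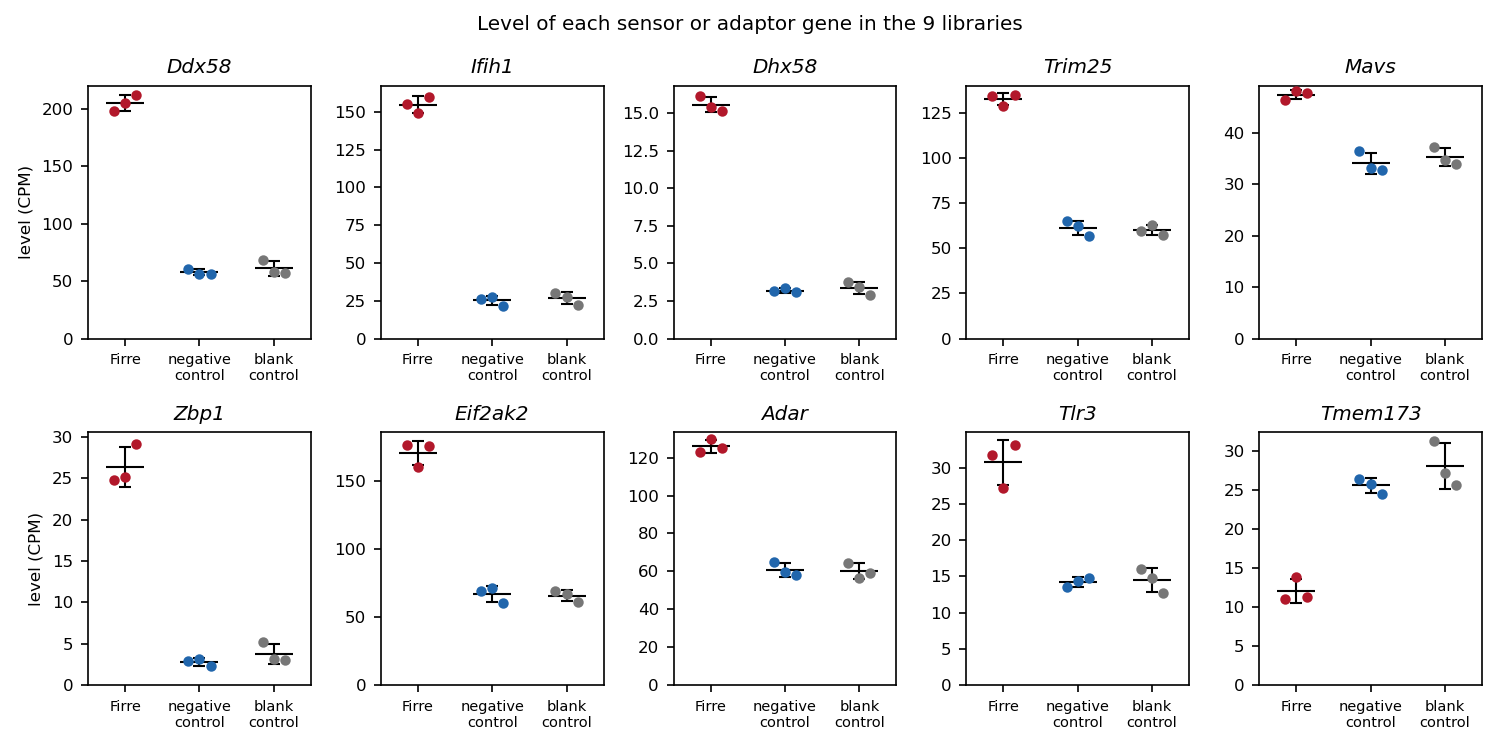
Level in CPM (vertical axes, each from 0) of the 10 sensor and adaptor genes in the 3 Firre, 3 negative control and 3 blank control libraries; points are libraries, horizontal bars the group mean and whiskers the SD (n = 3). In 9 panels the Firre points lie above all control points, and for Tmem173, at 11.0 to 13.8 CPM, they lie below.

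Among the cytosolic RNA helicases, Ifih1 changed by more than Ddx58. Gene positions are those of GENCODE M21 on mm10. Ddx58 (ENSMUSG00000040296, chromosome 4, 40203773 to 40239828, minus strand) had 198, 205 and 212 CPM with Firre overexpression, 60.5, 56.6 and 55.8 CPM with the negative control vector and 68.8, 57.5 and 56.9 CPM in the blank control. Its lowest Firre library was well above its highest control library, and the rise was 1.83 on the log2 scale (SE 0.06, edgeR adjusted p = 1.58e-20), or 3.55-fold with a 95% confidence interval of 3.26 to 3.88. Ifih1 (ENSMUSG00000026896, chromosome 2, 62595798 to 62646255, minus strand) had 155, 149 and 160 CPM in the 3 Firre libraries. The negative control had 26.3, 27.7 and 21.5 CPM and the blank control 29.9, 27.6 and 22.4 CPM. Its rise of 2.62 (SE 0.09, edgeR adjusted p = 5.22e-14) corresponded to 6.14-fold, with an interval of 5.37 to 7.02 that lay wholly above that of Ddx58. Both genes carry the GAAANNGAAA letters shown above, each within the first 50 transcribed bases.

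Dhx58 (ENSMUSG00000017830, chromosome 11, 100694884 to 100704271, minus strand), the helicase that tunes the other helicases rather than signalling itself, was scarce in the controls. It had 16.1, 15.4 and 15.1 CPM with Firre overexpression, 3.14, 3.39 and 3.06 CPM with the negative control vector and 3.77, 3.41 and 2.92 CPM in the blank control. It rose by 2.28 (SE 0.13, edgeR adjusted p = 3.10e-15), 4.86-fold with an interval of 4.02 to 5.87. An antisense gene, Dhx58os, overlaps 4.31% of its exon length, and had 172 counts over the 9 libraries, against at least 51 counts of Dhx58 in each library. Whether the counting used strand is not stated, so reads of overlapping genes on opposite strands may not have been told apart.

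The Firre libraries also held the helicases in other proportions than any control library. Per kilobase of exon, the level of Ifih1 was 0.627 to 0.678 of that of Ddx58 in the Firre libraries, 0.333 to 0.422 in the negative control and 0.340 to 0.415 in the blank control. The Dhx58 level was 0.154 to 0.176 of that of Ddx58 in the Firre libraries, 0.112 to 0.129 in the negative control and 0.110 to 0.128 in the blank control. For both ratios the Firre libraries lay above every control library, and a two-sided exact permutation test gave p = 0.1 against either control (n = 3 each), the smallest value that 3 libraries against 3 allow. Relative to Ifih1, the Dhx58 level was lower with Firre. It was 0.2365 to 0.2597 of that of Ifih1 in the Firre libraries, 0.2979 to 0.3548 in the negative control and 0.3086 to 0.3246 in the blank control. The ratios to Ddx58 share the Ddx58 level of each library as their denominator. Each ratio restates the changes given for its genes in the same libraries and is no separate evidence. How often the ratios of other gene pairs separate was not counted.

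Trim25 and Mavs, which act next to RIG-I, changed by different amounts. Trim25, the ubiquitin ligase first described as the activator of RIG-I (ENSMUSG00000000275, chromosome 11, 88999376 to 89020293, plus strand), had 135, 129 and 135 CPM in the 3 Firre libraries. The negative control had 65.0, 62.2 and 56.8 CPM and the blank control 59.4, 63.1 and 57.7 CPM. That was a rise of 1.12 (SE 0.06, edgeR adjusted p = 1.52e-16), or 2.17-fold with an interval of 1.998 to 2.35. Mavs, the adaptor shared by RIG-I and MDA5 (ENSMUSG00000037523, chromosome 2, 131234063 to 131248025, plus strand), had the smallest change of the 10 genes. It had 46.4, 48.1 and 47.8 CPM with Firre overexpression, 36.4, 33.1 and 32.8 CPM with the negative control vector and 37.2, 34.8 and 33.9 CPM in the blank libraries. The rise of 0.48 (SE 0.07, edgeR adjusted p = 3.27e-07) was 1.39-fold with an interval of 1.27 to 1.53, and 16.9% of all genes tested had a higher log2 fold change, against 0.429% for Ifih1. Cardiomyocyte markers rose in the same libraries, 14 of 14 at a median of 0.62 (13 of 14 when libraries were scaled by their totals alone), and their part in the change of Mavs was not tested.

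Zbp1, which binds left-handed Z-RNA and Z-DNA and can start necroptotic cell death, had the largest rise of the 10 genes. Zbp1 (ENSMUSG00000027514, chromosome 2, 173206612 to 173218923, minus strand) had 24.9, 25.1 and 29.2 CPM in the 3 Firre libraries. The negative control had 2.93, 3.15 and 2.25 CPM and the blank control 5.17, 3.17 and 3.03 CPM. The rise over the negative control was 3.24 (SE 0.15, edgeR adjusted p = 1.46e-16), 9.45-fold with an interval of 7.64 to 11.7, and 0.205% of the genes tested had a higher value. Over the blank control it was 2.82 (SE 0.15, edgeR adjusted p = 1.73e-15), or 7.06-fold with an interval of 5.74 to 8.68. The first blank control replicate, at 5.17 CPM, was above the other 5 control libraries.

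Adar, whose longer interferon-induced product carries the same kind of Z-nucleic-acid-binding domain as ZBP1, also rose. Adar (ENSMUSG00000027951, chromosome 3, 89715022 to 89753446, plus strand) had 123, 130 and 125 CPM with Firre overexpression, 64.9, 59.6 and 57.8 CPM with the negative control vector and 64.6, 56.7 and 59.4 CPM in the blank libraries. The rise was 1.05 (SE 0.06, edgeR adjusted p = 1.08e-15), or 2.07-fold with an interval of 1.91 to 2.25. A single count per gene adds the transcripts from all its start sites, so it does not show which of the starts contributed. The exons of Chrnb2, on the opposite strand, overlap 16.8% of the Adar exon length, and Chrnb2 had 154 counts over the 9 libraries against at least 1012 counts of Adar in each.

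Eif2ak2 encodes PKR, the kinase that stops translation by phosphorylating eIF2alpha once it binds double-stranded RNA. Eif2ak2 (ENSMUSG00000024079, chromosome 17, 78852564 to 78882573, minus strand) had 176, 160 and 176 CPM in the 3 Firre libraries. The negative control had 69.2, 71.0 and 60.5 CPM and the blank control 69.3, 66.6 and 61.3 CPM. All Firre libraries were above all controls, with a rise of 1.35 (SE 0.06, edgeR adjusted p = 1.64e-17), or 2.55-fold with an interval of 2.34 to 2.78. The ratio of the Adar level per kilobase to that of Eif2ak2 was 0.440 to 0.509 in the Firre libraries, 0.528 to 0.601 in the negative control and 0.536 to 0.611 in the blank control. All Firre libraries lay below all control libraries (two-sided exact permutation p = 0.1 against either control, n = 3 each, the smallest possible). That ratio restates the changes of Adar and Eif2ak2 and is no separate evidence.

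Tlr3, which senses double-stranded RNA inside endosomes, rose by an amount whose interval overlapped those of Trim25 and Adar. Tlr3 (ENSMUSG00000031639, chromosome 8, 45395665 to 45411080, minus strand) had 31.8, 27.2 and 33.1 CPM with Firre overexpression, 13.5, 14.4 and 14.8 CPM with the negative control vector and 15.96, 14.8 and 12.7 CPM in the blank libraries. The rise was 1.11 (SE 0.09, edgeR adjusted p = 1.34e-11), or 2.16-fold with an interval of 1.89 to 2.46.

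Tmem173 went the other way. This gene of the DNA-sensing adaptor STING (ENSMUSG00000024349, chromosome 18, 35733679 to 35740554, minus strand) had 11.0, 13.8 and 11.2 CPM in the 3 Firre libraries. The negative control had 26.4, 25.8 and 24.5 CPM and the blank control 31.3, 27.2 and 25.6 CPM. It fell by 1.08 (SE 0.10, edgeR adjusted p = 4.63e-11) against the negative control, a ratio of 0.472 with an interval of 0.412 to 0.541, and by 1.21 (SE 0.10, edgeR adjusted p = 4.09e-12) against the blank control. Of all genes tested, 93.4% had a higher log2 fold change against the negative control. The Tmem173 level per kilobase was 0.287 to 0.351 of that of Mavs in the Firre libraries, 0.884 to 0.950 in the negative control and 0.920 to 1.03 in the blank control (two-sided exact permutation p = 0.1 against either control, n = 3 each, the smallest possible). That ratio restates the changes of Tmem173 and Mavs and is no separate evidence.

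Markers of cell types other than cardiomyocytes fell in the same libraries as Tmem173. Endothelial markers fell in 11 of 12 genes at a median log2 fold change of -1.06, and summed to 644 to 670 CPM in the Firre libraries, 1497 to 1511 CPM in the negative control and 1567 to 1622 CPM in the blank control. Fibroblast markers fell in 12 of 13 at a median of -1.05, with sums of 4615 to 5156 CPM in the Firre libraries, 10010 to 10200 CPM in the negative control and 10000 to 10440 CPM in the blank control. Smooth muscle and pericyte markers fell in 9 of 11 and rose in 2 (1 with library totals alone), at a median of -1.13, with sums of 2825 to 3055 CPM in the Firre libraries, 3642 to 4070 CPM in the negative control and 3897 to 4190 CPM in the blank control. The 2 that rose, named after their values were seen, were Des at 0.87 and Abcc9 at 0.17. Des alone had 1265 to 1381 CPM of the sums in the Firre libraries and 689.5 to 732.9 CPM in the negative control.

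Macrophage markers fell in all 14 of 17 that passed the filter, at a median of -4.55, and summed to 12.3 to 13.9 CPM in the Firre libraries, 79.5 to 86.4 CPM in the negative control and 104 to 119 CPM in the blank control. C1qa, a defining macrophage marker, had 0 counts with Firre. That was at least 44.2-fold below the negative control, taking a floor of 3 counts over the group, and the median was the same with C1qa at that bound. None of 12 lymphocyte and 8 neutrophil markers passed the filter, and their sums reached at most 0.304 and 0.658 CPM in a Firre library, 0.154 and 0.714 CPM in a negative control library and 0.511 and 0.972 CPM in a blank control library. In RNA from a whole preparation, fewer cells of a type and less RNA per cell cannot be told apart, and the part of these markers in the fall of Tmem173 was not tested.

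**Figure D2:**
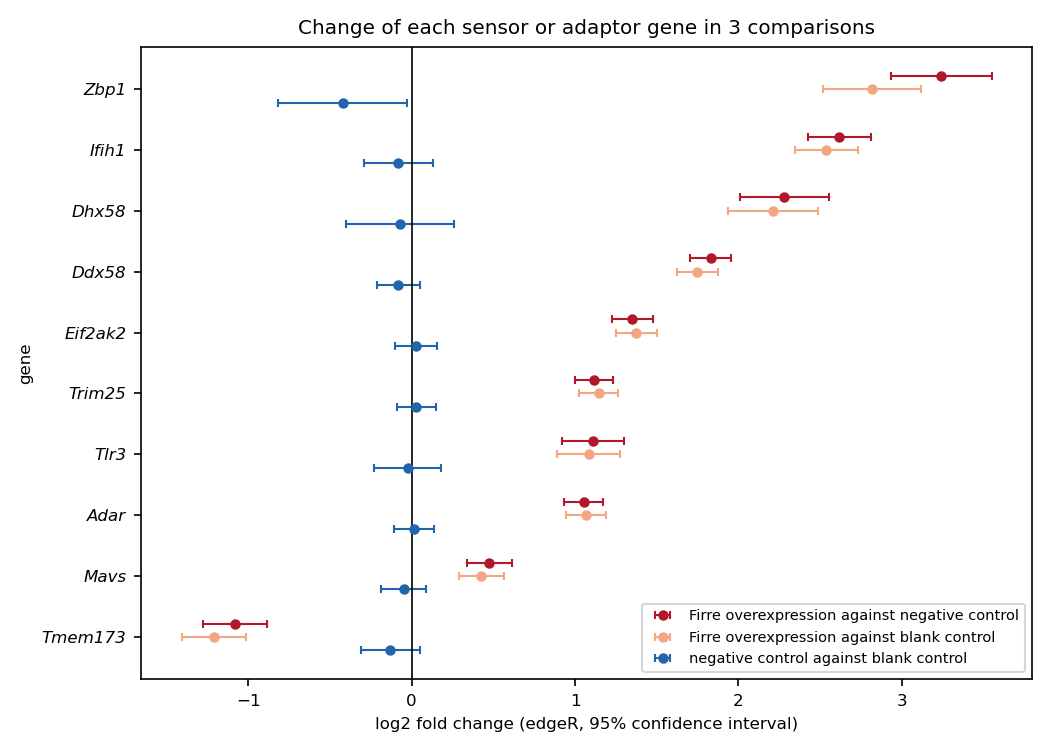
Log2 fold change of each gene (horizontal axis) with its 95% confidence interval from edgeR, for Firre overexpression against the negative control, Firre overexpression against the blank control and the negative control against the blank control. The first 2 comparisons run from 3.24 and 2.82 for Zbp1 to -1.08 and -1.21 for Tmem173, and the values between the controls lie between -0.42 and 0.03.

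No change in the 10 genes was detectable between the control groups. In the negative control against the blank control none of the 10 passed, with log2 fold changes of -0.42 to 0.03, and 0.0576% of all genes tested passed, 9 of 15633, where 1331 had an unadjusted p under 0.05. Zbp1 was the single gene of the 10 with an unadjusted p under 0.05, at -0.42 (SE 0.19, edgeR adjusted p = 0.566) and a ratio of 0.747 with an interval of 0.568 to 0.982; DESeq2 and limma-voom also called none of the 10. The count of 9 rested on single libraries. It was 0 without the first blank control replicate, where 1037 genes had an unadjusted p under 0.05, and 55 without the second. It was 3, 4 and 15 without negative control replicate 1, 2 and 3, and 4 without the third Firre replicate. The intervals set how large an unseen change could be: for Ddx58 the ratio of negative to blank control was 0.864 to 1.04, for Ifih1 0.818 to 1.09, for Mavs 0.878 to 1.06, for Eif2ak2 0.931 to 1.11 and for Tmem173 0.806 to 1.04. For Dhx58, with the fewest reads after Zbp1, the ratio was 0.758 to 1.20.

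The order of abundance among the sensors differed between groups. Levels between genes were compared as CPM per kilobase of exon. In the Firre libraries Eif2ak2 stood first at 33.4 ± 1.75 CPM per kilobase, followed by Ddx58 at 29.1 ± 0.992, Trim25 at 23.1 ± 0.559, Ifih1 at 18.9 ± 0.662 and Adar at 15.5 ± 0.406 CPM per kilobase (SD, n = 3). Mavs followed at 14.2 ± 0.272, Zbp1 at 7.48 ± 0.691, Tlr3 at 5.90 ± 0.593, Dhx58 at 4.76 ± 0.159 and Tmem173 at 4.39 ± 0.567 CPM per kilobase. Of these neighbours only Dhx58 and Tmem173 overlapped between their libraries.

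In the negative control Eif2ak2 was also first, at 13.1 ± 1.09 CPM per kilobase, but Trim25, Mavs and Tmem173 came next at 10.7 ± 0.717, 10.2 ± 0.599 and 9.32 ± 0.350 CPM per kilobase, ahead of Ddx58 at 8.17 ± 0.363 (SD, n = 3). Adar followed at 7.49 ± 0.456, Ifih1 at 3.08 ± 0.393 and Tlr3 at 2.73 ± 0.122, and Dhx58 and Zbp1 were lowest at 0.976 ± 0.0521 and 0.787 ± 0.134 CPM per kilobase. Trim25 and Mavs, Ddx58 and Adar, and Ifih1 and Tlr3 overlapped. The blank control began with Eif2ak2 as well, at 12.9 ± 0.804 CPM per kilobase. There Mavs, Trim25, Tmem173 and Ddx58, at 10.6 ± 0.519, 10.4 ± 0.480, 10.2 ± 1.08 and 8.66 ± 0.947 CPM per kilobase, each overlapped the next, as did Ifih1 and Tlr3, and Zbp1 and Dhx58. Tmem173 thus ranked 10 of the 10 genes in the Firre libraries and 4 in both control groups, and Ifih1 ranked 4 with Firre and 7 in both control groups.

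Against all genes tested, ranked by CPM per kilobase, Ddx58 stood at the 89.4 percentile in the Firre libraries, 66.2 in the negative control and 67.7 in the blank control. Ifih1 stood at 83.5 with Firre, 42.7 in the negative control and 43.8 in the blank control, and Tmem173 at 50.7 with Firre, 69.4 in the negative control and 71.7 in the blank control. Replicates were close, with a coefficient of variation of 1.89% (Mavs) to 12.9% (Tmem173) in the Firre group. In the negative control it was 3.75% (Tmem173) to 17.0% (Zbp1), and in the blank control 4.58% (Trim25) to 31.6% (Zbp1).

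**Figure D3:**
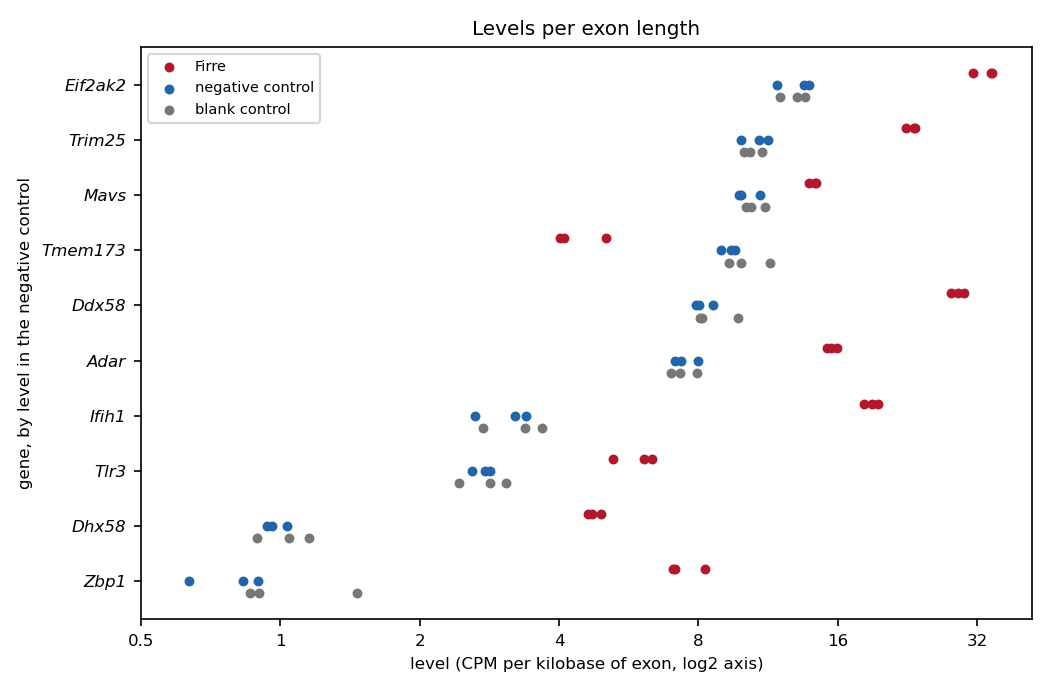
Level of the 10 genes in CPM per kilobase of exon (log2 axis) in each library, with genes ordered by their mean in the negative control; each point is a library. Tmem173 lies at 4.03 to 5.04 CPM per kilobase with Firre, below the other 9 genes except Dhx58, whose libraries it overlaps, and ranks 4 in the negative control.

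Of the signalling genes around the RNA helicases, the ligase gene Rnf135 rose and the kinase genes Tbk1 and Ikbke fell. Of 36 partners and regulators of the RNA helicases 35 were tested, and 11 rose and 10 fell at a median of 0.01 (10 rose and 11 fell, at a median of -0.04, when libraries were scaled by their totals alone). Over all genes tested 27.5% rose and 28.4% fell, so these counts are near the background. Against the blank control 12 rose and 10 fell. Rnf135, the ubiquitin ligase also called Riplet that activates RIG-I, rose by 1.25 against the negative control (SE 0.15, edgeR adjusted p = 3.53e-08). It had 11.9, 8.58 and 9.98 CPM with Firre and 3.60, 4.56 and 4.59 CPM in negative control libraries. The blank control libraries were higher, at 6.77, 5.02 and 5.94 CPM. Against the blank control no tested gene of the list had a log2 fold change above 0.79. Zc3hav1, an antiviral zinc-finger protein that binds CpG-rich RNA, rose by 0.71 (SE 0.05, edgeR adjusted p = 6.01e-13), and Mfn2, a mitochondrial fusion gene whose product binds MAVS, rose by 0.63 (SE 0.05, edgeR adjusted p = 3.48e-13).

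The interferon-inducing kinase genes Tbk1 and Ikbke fell. Tbk1 fell by 0.35 (SE 0.06, edgeR adjusted p = 9.93e-06), to 45.0, 44.5 and 43.6 CPM with Firre, against 56.8, 55.0 and 57.8 CPM in negative control libraries. Ikbke, the inducible relative of TBK1, fell by 0.69 (SE 0.09, edgeR adjusted p = 8.87e-08), and Traf3, which recruits both, fell by 0.20 (SE 0.07, edgeR adjusted p = 0.0121) with overlapping libraries. Irf3, the transcription factor these kinases activate, had a value of -0.04 (SE 0.07, edgeR adjusted p = 0.615). Nlrx1 and Riok3, described as regulators of the pathway, had 0.13 and 0.02 (edgeR adjusted p = 0.409 and 0.751). Chuk and Ikbkb, kinases of the NF-kappaB branch below MAVS that are named after their values were seen, had 0.04 and -0.08 (edgeR adjusted p = 0.682 and 0.272). Rnf125, a ubiquitin ligase that marks RIG-I for degradation, had the lowest value of the list and is named after its values were seen: it fell by 2.01 (SE 0.18, edgeR adjusted p = 1.05e-10), to 1.22, 1.40 and 1.62 CPM with Firre, against 5.45, 5.88 and 5.72 CPM in negative control libraries.

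Of the DNA-sensing genes around Tmem173, Aim2 and Stim1 fell and Cgas did not pass. Of 29 such genes 28 were tested, and 6 rose and 6 fell at a median of -0.05 (4 rose and 10 fell with library totals alone), beside 27.5% and 28.4% over all genes tested. Against the blank control 7 rose and 11 fell. Cgas, the enzyme that makes the STING ligand, had 3.998, 3.43 and 3.60 CPM with Firre and 4.37, 4.09 and 3.62 CPM in negative control libraries, a value of -0.13 (SE 0.17, edgeR adjusted p = 0.531) that did not pass. Aim2, the inflammasome sensor of DNA, fell by 0.70 (SE 0.09, edgeR adjusted p = 2.79e-08), and Stim1, a calcium sensor that holds STING in the endoplasmic reticulum, fell by 0.74 (SE 0.07, edgeR adjusted p = 5.40e-10). Ifi203, of an interferon-inducible family of closely similar genes whose reads may be shared, rose by 1.93 (SE 0.13, edgeR adjusted p = 1.16e-12). Trex1, the nuclease that clears cytosolic DNA, had 0 counts in all 9 libraries; all of its exon bases are also exon bases of Atrip on the same strand, so reads of Trex1 could not be assigned to it alone.

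Most genes of the endosomal Toll-like receptor list fell, where Tlr3 rose. Tlr7, a receptor for single-stranded RNA, had 4, 1 and 6 counts in the Firre libraries against 34, 41 and 27 counts in the negative control, and fell by 3.18 (SE 0.44, edgeR adjusted p = 3.06e-07). Tlr9 had 0 counts in the 3 Firre libraries and at most 4 in any control library. In the list of receptors, chaperones and adaptors 2 of 21 tested genes rose and 12 fell, at a median of -0.20 (14 fell with library totals alone), beside 27.5% that rose and 28.4% that fell over all genes tested. Against the blank control 3 rose and 13 fell. Irf7, the transcription factor that amplifies interferon production, rose by 2.36 (SE 0.05, edgeR adjusted p = 8.32e-26), and Ticam1, the adaptor TRIF that carries the TLR3 signal, rose by 0.33 (SE 0.10, edgeR adjusted p = 5.67e-03). Ctss, a lysosomal protease abundant in macrophages, fell by 5.24 (SE 0.21, edgeR adjusted p = 6.20e-19). The chaperone gene Unc93b1 had -0.22 (edgeR adjusted p = 0.0610) and Myd88 had 0.05 (edgeR adjusted p = 0.615). The macrophage markers given above fell in these libraries, and their part in the fall of Tlr7 and Ctss was not tested.

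**Figure D4:**
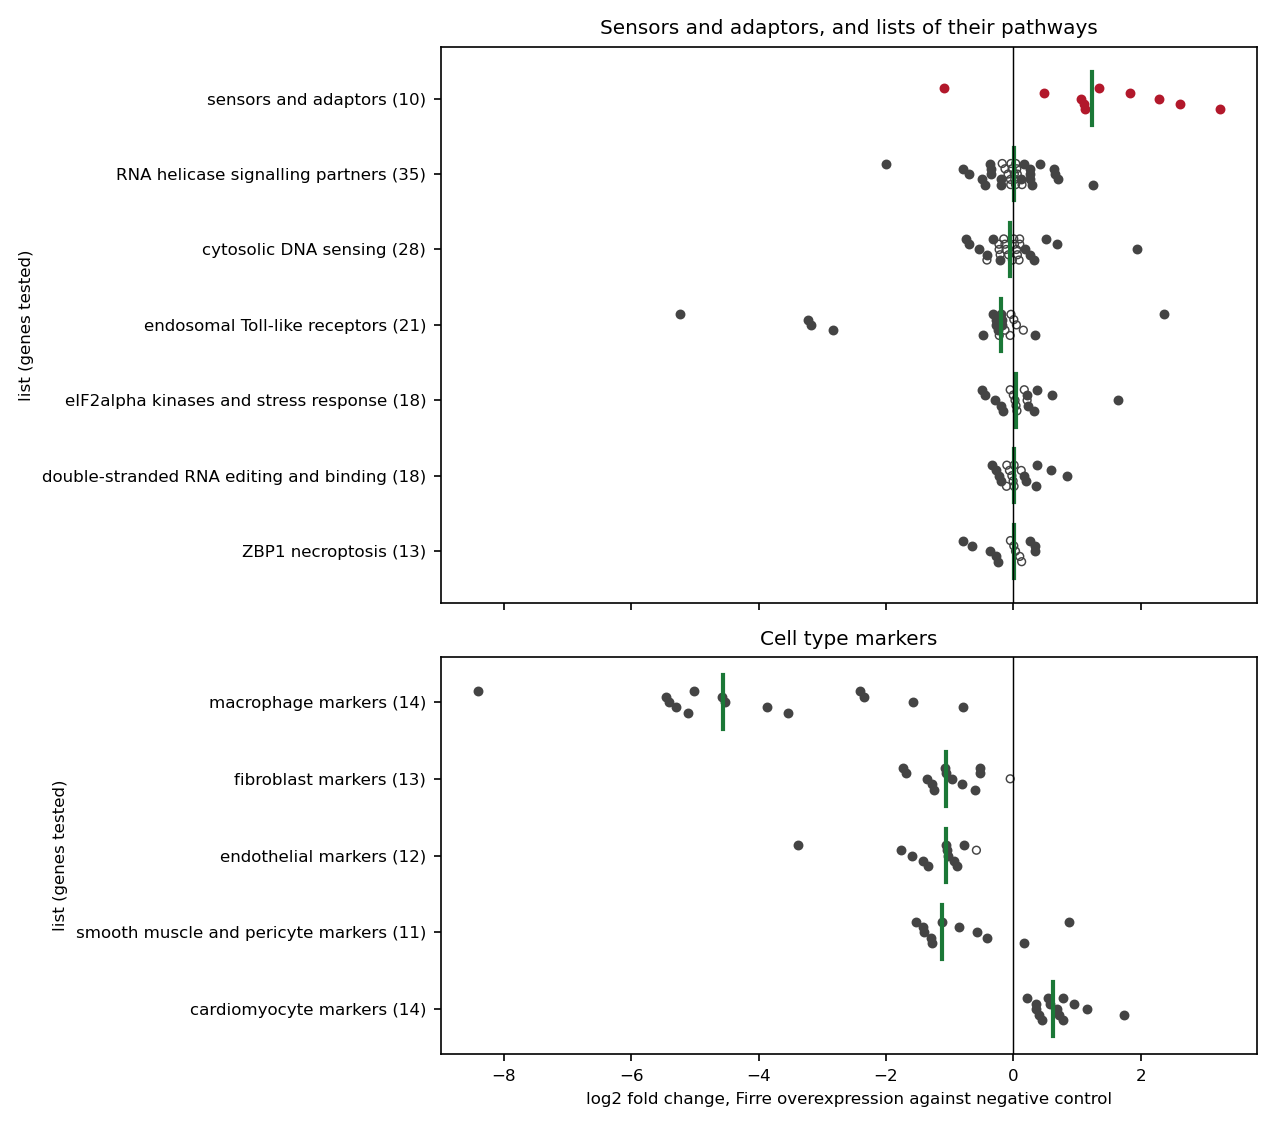
Log2 fold change of Firre overexpression against the negative control (horizontal axis) for each tested gene of the 10 sensors and adaptors, of the 6 pathway lists with tested genes and of 5 marker lists; filled points passed the edgeR test, open points did not, and green bars are medians. The sensors have a median of 1.23, the pathway lists have medians of -0.20 to 0.05, and the macrophage markers have a median of -4.55; C1qa, with 0 counts in the Firre libraries, is drawn at its fitted value, which is no bound.

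Among the eIF2alpha kinases PKR was the only gene that rose. Eif2ak1 had 0.00 (SE 0.06, edgeR adjusted p = 0.985), Eif2ak3, which answers to misfolded protein in the endoplasmic reticulum, fell by 0.50 (SE 0.08, edgeR adjusted p = 5.04e-06), and Eif2ak4, which answers to missing amino acids, fell by 0.20 (SE 0.08, edgeR adjusted p = 0.0338). Prkra, a protein activator of PKR, had 0.22 (SE 0.10, edgeR adjusted p = 0.0590), and Eif2s1, the gene of the substrate eIF2alpha, had 0.06 (SE 0.06, edgeR adjusted p = 0.433). Ddit3, the stress transcription factor CHOP, rose by 1.64 (SE 0.06, edgeR adjusted p = 3.87e-20), and Eif2b4, a subunit of the exchange factor for eIF2, rose by 0.61 (SE 0.07, edgeR adjusted p = 3.50e-09). Other genes of the list, named after their values were seen, did not rise with Ddit3. Atf4 fell by 0.16 (edgeR adjusted p = 6.29e-03) and Dnajc3 by 0.45 (edgeR adjusted p = 5.825e-09), and Ppp1r15a had 0.03 (edgeR adjusted p = 0.753). Over the 18 genes of the eIF2alpha kinases and the stress response 6 rose and 5 fell, at a median of 0.05 (-0.01 with library totals alone), and against the blank control 5 rose and 4 fell, both near the background of all genes.

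Adarb1, the other active adenosine deaminase of double-stranded RNA, had a value of 0.00 (SE 0.06, edgeR adjusted p = 0.954), with 73.7, 75.3 and 69.4 CPM with Firre and 74.3, 74.4 and 70.4 CPM in negative control libraries. Dhx9, a helicase that unwinds structured RNA, fell by 0.33 (SE 0.05, edgeR adjusted p = 2.72e-06). Pnpt1 and Supv3l1, whose products together degrade double-stranded RNA inside mitochondria, rose by 0.84 (SE 0.07, edgeR adjusted p = 2.45e-12) and 0.59 (SE 0.07, edgeR adjusted p = 3.34e-08). In that list of RNA editing and binding genes 6 of 18 tested rose and 4 fell, at a median of 0.00, and with library totals alone 4 rose and 6 fell, at a median of -0.05. Against the blank control 6 rose and 4 fell. Read against 27.5% and 28.4% over all genes tested, these counts give no result about the list.

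Ripk3 and Ripk1, kinase genes of the death pathway below ZBP1, fell. Ripk3, the kinase that ZBP1 binds, fell by 0.64 (SE 0.07, edgeR adjusted p = 2.92e-09), to 27.8, 29.6 and 30.5 CPM with Firre, against 47.3, 43.5 and 46.6 CPM in negative control libraries. Ripk1 fell by 0.79 (SE 0.07, edgeR adjusted p = 6.13e-11), and Mlkl, which RIPK3 phosphorylates to open the plasma membrane, rose by 0.27 (SE 0.07, edgeR adjusted p = 2.12e-03). Of 13 necroptosis genes tested 3 rose and 5 fell, at a median of 0.01 (-0.05 with library totals alone), and against the blank control 3 rose and 5 fell as well. Over all genes tested 27.5% rose and 28.4% fell against the negative control.

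Transcripts of the interferons themselves were at the limit of detection. None of 21 interferon genes passed the filter, and their sum was 0.136 to 0.354 CPM in the Firre libraries, 0 to 0.0941 CPM in the negative control and 0 to 0.172 CPM in the blank control. Ifnb1, the gene of interferon beta and a direct target of the IRF3 pathway, had 5, 1 and 3 counts in the Firre libraries and 0 counts in all 6 control libraries, at least 2.96-fold higher than in the negative control and at least 2.64-fold higher than in the blank control against a floor of 3 counts over the group. Those bounds allow for counting error in the controls alone, and Ifnb1 was not tested.

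The genes whose pattern lay closest to the mean pattern of the 10 sensor and adaptor genes over the 9 libraries, by root mean square distance of centred log2 CPM, were Lrrc14b (0.0726), Irf9 (0.0727), Lgals9 (0.0806), Ppargc1a (0.0866) and Ifit2 (0.0978). That mean includes Tmem173, which ran opposite to it (Pearson correlation -0.946). The 10 genes themselves lay at distances of 0.0646 (Eif2ak2) to 1.19 (Tmem173) from it. Irf9 is part of the transcription factor that interferon activates, Ifit2 an interferon-induced antiviral gene, Lgals9 the gene of galectin-9 and Ppargc1a a coactivator of mitochondrial genes. Their log2 fold changes against the negative control were 1.46 for Lrrc14b, 1.35 for Irf9, 1.37 for Lgals9, 1.38 for Ppargc1a and 1.54 for Ifit2. Likeness of that kind follows the difference between the groups and says nothing of shared control.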

How the data were processed

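The authors deposited raw counts for each Ensembl gene. Per the submitters' processing notes, FastQC, Trimmomatic, STAR and featureCounts were used on mm10, with versions and strand setting not given in the sources used here. Per the labels' protocols, a ribosomal RNA depletion kit and a directional library kit were used, while the labels give the molecule as polyA RNA. The 5 lines naming no gene held 16.3% to 17.4% of counts and were left out. They are named as the program HTSeq names them, so which program counted the reads is not settled. Symbols, coordinates and exon lengths came from GENCODE M21; promoter windows came from RefSeq on GRCm38.p6.

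All 9 libraries entered a single fit of edgeR 4.0.16 (R 4.3.3, TMM, filterByExpr with minimum count 10, robust quasi-likelihood F test, 6 residual degrees of freedom), and p-values were adjusted by Benjamini-Hochberg over 15633 genes. SEs were taken from the F statistic, as the size of the log2 fold change divided by its square root. CPM per kilobase divides by exon length. Bounds cover counting error only. DESeq2 1.42.0 and limma 3.58.1 were alternatives. The script was tested on simulated data with 15225 genes for the comparison of Firre with the negative control. It found 82% of the 50 genes whose log2 fold change was set to 0.5 and 98.7% of the 75 set to 1. Of its calls 6.4% were false. The simulation changed a far smaller share of genes than the 56.0% called in these data, so its rates may not carry over.

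The genes, lists and motifs were chosen with earlier results of these data known. Named besides the 10 genes and Firre are partners listed by role, the 2 genes with the smallest p of each pathway list, and the 5 genes closest in pattern with at least 2 CPM. Some further list genes were named after their values were seen. Of 241 list symbols, 240 were in the table. Lists were described by counts and medians, with no set test.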

Additional observations from a re-analysis of the deposited data

How the results depend on the processing

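The log2 fold changes of the 10 genes kept their direction where called, and their side of the threshold, in all 540 values from 18 alternatives to the 3 comparisons (other scalings, DESeq2, limma-voom, other low-count filters, fits of the 2 groups compared, each library left out, and the replicate block). Against the negative control the range for Zbp1 was 3.11 to 3.35, for Ifih1 2.52 to 2.69, for Mavs 0.42 to 0.52 and for Tmem173 -1.20 to -1.02, and the highest adjusted p was 1.58e-05, for Mavs. Between the control groups the number of genes called was 20 with DESeq2, 5 with limma-voom and 98 with no low-count filter, and leaving out single libraries gave 0 to 55; the cause was not tested. No pairing by the replicate numbers of the titles was seen. Same-numbered libraries deviated from their group means with correlations of -0.0377 to 0.0275 between Firre and negative control. Such values cannot show whether the libraries were prepared as pairs. With the number as a replicate block, 8592 genes were called for Firre overexpression against the negative control and 8586 against the blank control. Depth limits the low genes most: Zbp1 and Dhx58 had as few as 44 and 51 counts in a library.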

Other observations

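The first blank control replicate had the highest level of its group in 9 of the 10 sensor and adaptor genes, Trim25 being the exception. The same count was not made over all genes tested, so it is not shown to be particular to these genes. That library also had the fewest counts assigned to genes, 15591542. The Ddx58 level there was 68.8 CPM, against 57.5 and 56.9 CPM in the other blank control libraries, and the Tmem173 level was 31.3 CPM, against 27.2 and 25.6 CPM.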
